A study of Mus musculus with 23 samples.

Results

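Asic5, B3galnt1, Jade1, Ppm1l and Trim2 are 5 mouse genes of chromosome 3. At 1 probe set or more, they read higher in the livers of P2ry13 knockout (KO) mice than in those of wild-type (WT) mice. Not all probe sets of Jade1 and Ppm1l did so, and for Trim2 the difference lay in the females. The 5 genes were chosen by their KO minus WT differences on these same arrays. The KO against WT values given for them describe that choice and are not tested. Every probe set of the array that the platform annotation ties to exactly 1 of these symbols was taken: 8 of 38385 probe sets in all, 1 each for Asic5, B3galnt1 and Trim2, 2 for Jade1 and 3 for Ppm1l. A probe set is a group of array probes that is summarised as 1 intensity, and all values below are log2 of that intensity unless stated otherwise.

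Liver RNA was measured on 23 arrays: 6 female KO, 6 female WT, 6 male KO and 5 male WT livers, the last numbered 2 to 6. The KO mice lack P2ry13, also named GPR86, which encodes the ADP receptor P2Y13, and the study was designed to find liver transcripts that change with its ablation. Strain, age, the kind of deletion and the origin of the WT animals are not stated in the labels. The male WT array numbered 6 stood apart from its group for Asic5. The male KO minus WT difference and the sex difference of Asic5 are given with and without it.

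The 5 genes do not form a pathway. ASIC5 is an ion channel of the family of acid-sensing and epithelial sodium channels that opens in response to bile acids and has been described in bile duct cells and in the brain. B3GALNT1 adds N-acetylgalactosamine to globotriaosylceramide and so makes globoside, a glycosphingolipid of cell membranes. JADE1 is a PHD finger protein that directs the HBO1 histone acetyltransferase complex to chromatin. PPM1L is a metal-dependent protein phosphatase of the endoplasmic reticulum that acts on the ceramide carrier CERT and on stress kinases, and TRIM2 is a ubiquitin ligase with NHL repeats, best known for its action on neurofilament light chain in neurons.

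Asic5 and B3galnt1, which had the largest differences and 1 annotated start each, are shown with the 300 bases around their starts (250 before and 50 after), because the 2 windows differ widely in composition. Both are RefSeq sequences of build GRCm38.p6, 5′ to 3′ on the strand of the gene: chr3:81996672-81996971 on the plus strand for Asic5 and chr3:69598911-69599210 on the minus strand for B3galnt1. Capitals mark matches, on either strand, to TATAAA (the TATA box), to CCAAT (bound by NF-Y), to GGGCGG (a GC box) or to TTCNNNGAA (a pattern known from STAT factors).
Asic5: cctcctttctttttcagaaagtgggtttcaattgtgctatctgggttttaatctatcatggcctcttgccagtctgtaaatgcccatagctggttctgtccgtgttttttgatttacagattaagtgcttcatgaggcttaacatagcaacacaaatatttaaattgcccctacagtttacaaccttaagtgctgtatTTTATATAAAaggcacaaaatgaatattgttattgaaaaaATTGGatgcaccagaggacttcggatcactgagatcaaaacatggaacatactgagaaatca
B3galnt1: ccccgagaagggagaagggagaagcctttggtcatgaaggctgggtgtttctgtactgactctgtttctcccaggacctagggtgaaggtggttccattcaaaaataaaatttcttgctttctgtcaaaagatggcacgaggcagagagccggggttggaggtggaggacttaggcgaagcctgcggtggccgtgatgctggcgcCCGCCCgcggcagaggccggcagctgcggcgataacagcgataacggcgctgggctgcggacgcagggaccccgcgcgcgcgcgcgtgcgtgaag
The Asic5 window was 36.3% G or C with 2 CpG pairs, and held TATAAA on both strands in overlapping positions and CCAAT on the minus strand. The B3galnt1 window was 61.3% G or C with 26 CpG pairs, and held GGGCGG on the minus strand. Over all 32851 windows of the table, the median was 52.7% G or C and 7 CpG pairs. TATAAA was present in 13.6% of them, CCAAT in 37.4%, GGGCGG in 35.7% and TTCNNNGAA in 8.3%. Each of the 4 Jade1 windows held GGGCGG, with 14 to 38 CpG pairs, and the 5 Trim2 windows ranged from 0 to 21 CpG pairs. No window of the members held TTCNNNGAA, which says only that these letters are not in these windows. Ppm1l is named only.

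Array medians lay between 19.5 and 21.1 on the linear intensity scale. P2ry13 read 5.06 to 5.22 in female KO and 6.03 to 6.42 in female WT livers, and 5.07 to 5.34 in male KO and 5.80 to 6.34 in male WT livers, so every array lay on the side its label gives. Signal without transcript was read from 4 probe sets of Y-linked genes on the 12 female arrays, which lay between 2.53 and 3.69. The hepatocyte markers Alb, Tat and Ttr averaged 14.73, 12.81 and 11.87. Of 27 measured markers of hepatocytes, bile duct, Kupffer, endothelial, stellate and red blood cells, 0 passed in KO minus WT averaged over both sexes (limma, adjusted p under 0.05). Of all named genes 0.12% passed there, so nothing is read from this 0. Of the markers 3 had an unadjusted p under 0.05, beside 2651 of all 38385 probe sets (limma). In bulk tissue, more cells of a type and more RNA per cell cannot be told apart. The number of arrays limits the precision of every value.

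Asic5 had the largest difference. It read 6.33 to 7.80 with a median of 6.92 in female KO livers, against 4.1 to 5.69 with a median of 5.13 in female WT livers. In male KO livers it read 8.13 to 8.91 with a median of 8.44. The male WT livers numbered 2 to 6 read 5.32, 5.30, 5.34, 5.36 and 7.85. No KO array overlapped the WT arrays of its sex. The other 4 male WT arrays lay between 5.30 and 5.36, and the male WT array numbered 6 lay 0.29 below the lowest male KO array. KO minus WT was 1.97 in females (SE 0.32, 3.93-fold) and 2.63 in males (SE 0.34, 6.18-fold). Without the male WT array numbered 6, the male difference was 3.13 (SE 0.23, 8.76-fold).

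B3galnt1 had the lowest level of the 5 genes on this array, where levels of different probe sets are not comparable as amounts of RNA. It read 4.11 to 5.01 with a median of 4.45 in female KO livers, against 2.93 to 3.27 with a median of 3.06 in female WT livers. Male KO livers read 4.12 to 4.51 with a median of 4.24, and the male WT livers numbered 2 to 6 read 3.52, 3.24, 2.76, 3.04 and 3.39. All WT arrays lay at or under the highest Y-linked signal of female livers and all KO arrays lay above it, with no overlap in either sex. As measured, KO minus WT was 1.48 in females (SE 0.13) and 1.09 in males (SE 0.14). Set against the top of the Y-linked range, the KO level was at least 1.84-fold higher in females and at least 1.5-fold higher in males.

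Jade1 was read by a pair of probe sets that did not agree. Probe set A, annotated to a cDNA clone, read 7.02 to 7.29 with a median of 7.23 in female KO livers, against 6.27 to 6.41 with a median of 6.33 in female WT livers. In male KO livers it read 6.74 to 7.10 with a median of 7.03, against 6.13, 6.20, 6.81, 6.48 and 6.54 in the male WT livers numbered 2 to 6. The female groups did not overlap, while the male WT array numbered 4 lay above 1 male KO array. Its KO minus WT difference was 0.84 in females (SE 0.09) and 0.55 in males (SE 0.09). Probe set B, annotated to an expressed sequence tag, averaged 6.18 ± 0.24 in female KO and 6.30 ± 0.12 in female WT livers, and 6.50 ± 0.17 in male KO and 6.56 ± 0.15 in male WT livers (SD, n = 6, 6, 6 and 5). Its differences were -0.12 in females (SE 0.10) and -0.06 in males (SE 0.10), and the groups overlapped in both sexes. The labels and annotation do not say where on the gene each probe set lies.

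Ppm1l was read by 3 probe sets with 3 different results. The brightest, probe set A, is annotated to the RefSeq transcript and averaged 6.89 ± 0.22 in female KO and 6.94 ± 0.17 in female WT livers, and 6.86 ± 0.35 in male KO and 6.90 ± 0.09 in male WT livers (SD, n = 6, 6, 6 and 5). Its KO minus WT differences were -0.05 in females (SE 0.12) and -0.03 in males (SE 0.13).
Probe set B, annotated to a cDNA clone, read 6.54 to 7.03 with a median of 6.70 in female KO livers, against 6.02 to 6.14 with a median of 6.08 in female WT livers. Male KO livers read 6.52 to 7.02 with a median of 6.78, and the male WT livers numbered 2 to 6 read 5.89, 6.19, 6.09, 6.42 and 6.51. Neither sex overlapped at probe set B, though in males the gap between the groups was 0.01, set by the male WT array numbered 6. The differences were 0.66 in females (SE 0.10) and 0.58 in males (SE 0.11). Without that array the male difference was 0.65 (SE 0.11). Probe set C, annotated to another cDNA clone, averaged 6.18 ± 0.07 in female KO and 5.92 ± 0.17 in female WT livers, and 6.26 ± 0.12 in male KO and 6.00 ± 0.15 in male WT livers (SD, n = 6, 6, 6 and 5). It differed by 0.26 in females (SE 0.08) and 0.27 in males (SE 0.08), with a slight overlap in both sexes.

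Trim2 differed from the other 4 genes in that the difference lay in the female livers. It read 8.02 to 8.39 with a median of 8.27 in female KO livers, against 7.49 to 7.87 with a median of 7.66 in female WT livers, and these groups did not overlap. Male KO livers read 7.88 to 8.30 with a median of 8.0, and the male WT livers numbered 2 to 6 read 7.79, 8.13, 8.08, 8.01 and 7.84, so the male groups overlapped. KO minus WT was 0.56 in females (SE 0.08) and 0.07 in males (SE 0.09). The female WT mean of 7.66 ± 0.13 (SD, n = 6) was the lowest of the 4 groups, whose other means were 8.22 ± 0.14 in female KO, 8.04 ± 0.15 in male KO and 7.97 ± 0.15 in male WT livers (SD, n = 6, 6 and 5).

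**Figure D1:**
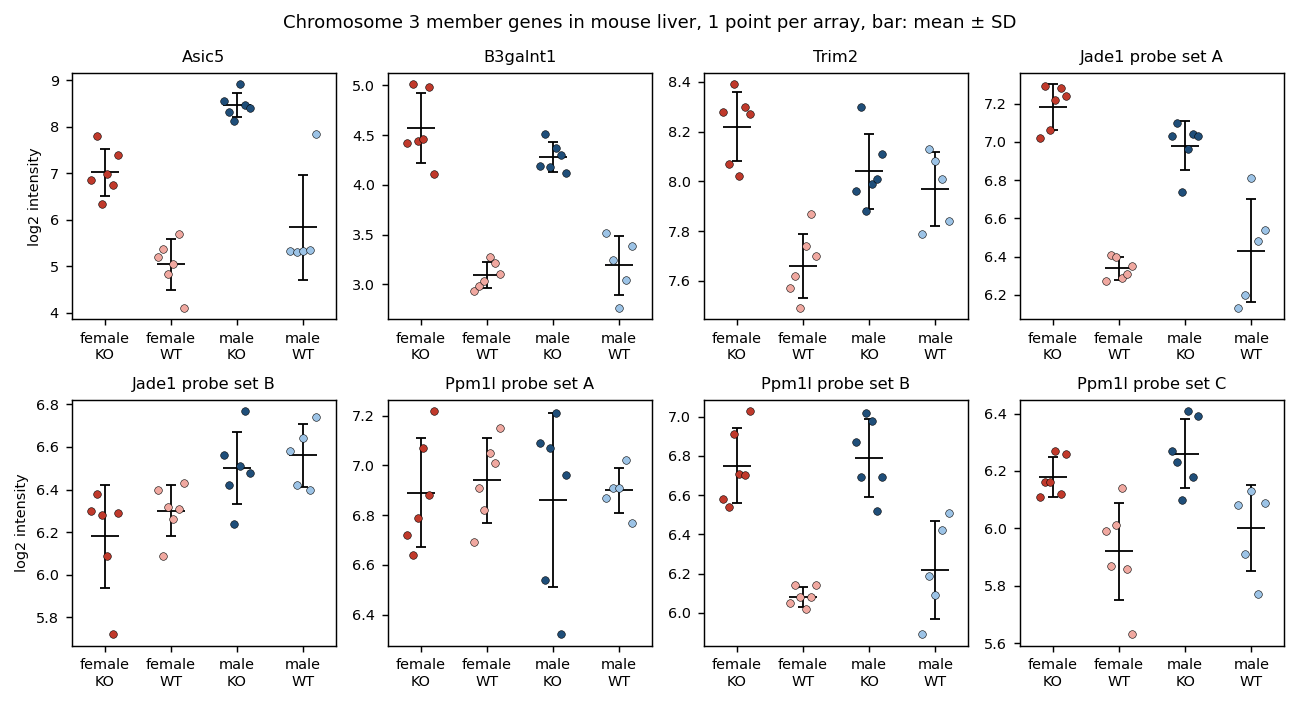
Log2 intensity of the 8 probe sets in each array (points), with group means and SDs (bars), for 6 female KO, 6 female WT, 6 male KO and 5 male WT livers; each panel has its own vertical scale, which does not start at 0. The KO points lie above the WT points of their sex for Asic5, B3galnt1 and Ppm1l probe set B, and the male WT array at 7.85 stands apart for Asic5.

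In females, 5 of the 8 probe sets, 1 for each gene, had every KO array above every WT array, a pattern held by 0.104% of all probe sets. In males 3 of the 8 had it (Asic5, B3galnt1 and Ppm1l probe set B), against 0.25% of all probe sets, and 0.00782% had it in both sexes, which is the 3 probe sets just named. By limma's adjusted p under 0.05, 5 of the 8 were called higher in females, 4 in males and 5 in the average over both sexes. Of all probe sets, 0.0547% were called in females (0.0234% higher), 0.0313% in males (0.0156% higher) and 0.0808% in the average (0.0365% higher). Without the male WT array numbered 6 the average called 4, Trim2 dropping out at 0.30 (SE 0.06). The members were picked for being higher, so nothing is read from these counts. The KO effect in females less that in males was 0.48 for Trim2 (SE 0.12), 0.29 for Jade1 probe set A (SE 0.13) and -0.65 for Asic5 (SE 0.47). Without the male WT array numbered 6, that of Asic5 was -1.16 (SE 0.31). None is given for B3galnt1, whose WT arrays of both sexes lay in the range of signal without transcript, so that both of its KO effects are lower bounds. The choice of genes called in 1 or both sexes bears on these values, and they are given with no test.

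**Figure D2:**
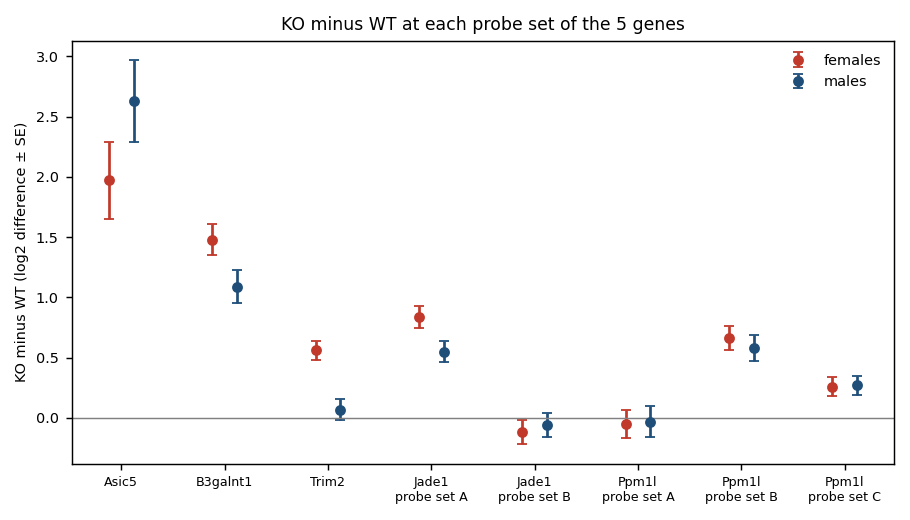
KO minus WT log2 difference with its standard error from limma, for each of the 8 probe sets in females (left point of a pair) and males (right point). Asic5 lies highest, Jade1 probe set B and Ppm1l probe set A lie near 0, and Trim2 is near 0 in males with 0.07.

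Of the genes of chromosome 3 that read higher in KO, the 5 members are not the complete set. Tlr2 and Snx27 lay just inside the threshold of an adjusted p under 0.05 in KO minus WT averaged over both sexes, with differences of 0.41 and 0.42 (limma, adjusted p = 0.0451 and 0.0489), and Hsd3b2 had 0.99. Hao2 had 1.28 in the average, from 2.64 in females and -0.08 in males, where it did not pass (limma, adjusted p = 0.987). Just outside lay Rapgef2 with 0.32, Slc30a7 with 0.30, Noct with 1.31 and Cd1d1 with 0.19 (limma, adjusted p = 0.0524, 0.0524, 0.0612 and 0.0772). The average differences of the members themselves were 2.30 for Asic5, 1.29 for B3galnt1, 0.70 for Jade1 probe set A, 0.62 for Ppm1l probe set B and 0.31 for Trim2.

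Female minus male levels, averaged over genotypes, were not used to choose the genes and could be tested. Asic5 was lower in females, by a log2 difference of -1.12 (SE 0.23, limma, adjusted p = 0.00163). It averaged 7.02 ± 0.51 in female KO and 8.46 ± 0.26 in male KO livers (SD, n = 6 each), and every male KO array lay above every female KO array, as at 1.14% of all probe sets. In WT livers it averaged 5.04 ± 0.55 in females and 5.84 ± 1.13 in males (SD, n = 6 and 5). The female minus male difference was -1.45 in KO livers and -0.79 in WT livers, and in WT livers it was -0.29 without the male array numbered 6. Without that array the average over genotypes was -0.87 (SE 0.16, limma, adjusted p = 0.000353).

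Jade1 probe set B was also lower in females, by -0.29 (SE 0.07, limma, adjusted p = 0.00759), and 5 of 6 male KO arrays lay above all female KO arrays. Jade1 probe set A, the one that differed between KO and WT, had a female minus male difference of 0.05 (SE 0.06, limma, adjusted p = 0.677). The other 5 probe sets, those of B3galnt1, Ppm1l and Trim2, lay between -0.09 and 0.09 with standard errors of 0.06 to 0.09, and did not pass (limma, adjusted p = 0.433 to 0.874). For Trim2 this average joins opposite differences: male minus female means were 0.31 in WT and -0.18 in KO livers, given with no test. For B3galnt1 it includes WT arrays in the range of signal without transcript. In all, 2 of the 8 probe sets passed between the sexes, both lower in females, where 10.5% of all probe sets passed and 4.55% were lower in females. Markers of other liver cells differed between the sexes too: 6 of 6 measured Kupffer cell markers, 4 of 6 endothelial and 3 of 6 stellate markers passed as higher in females. Of 5 bile duct markers only Sox9 passed, with -0.34. Krt7, Krt19, Epcam and Cftr went the other way, with 0.10, 0.37, 0.10 and 0.01, and did not pass (limma, adjusted p = 0.393 to 0.925). Alas2, the heme synthesis enzyme of red cell precursors, was lower in females by -2.74 (limma, adjusted p = 7.75e-22). It was the only 1 of 4 listed red blood cell markers that was measured, and 1 gene does not stand for a cell type. The bile duct markers summed to 75.3 to 170 in female KO and 71.5 to 117 in male KO livers, and to 70.3 to 163 in female WT and 79.2 to 90.3 in male WT livers (linear intensity), with Cftr averaging 2.64, inside the Y-linked range. Their part in the difference of Asic5 was not tested.

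Within groups, no pair of members passed a test of moving together. Deviations of each array from its group mean were correlated over 23 arrays for the 10 pairs of members, each by its probe set with the smallest p in KO minus WT, and for the 4 pairs of probe sets of 1 gene. Pearson's r lay between -0.34 and 0.26 for the 10 pairs of members, and 0 of the 14 pairs passed (two-sided permutation within groups, adjusted over 14 pairs). The highest value was that of Ppm1l probe sets A and B, at r = 0.57 and Spearman's rho = 0.51 (permutation p = 0.00637 and 0.0204, adjusted p = 0.0892 and 0.286), and r was 0.63 without the 2 farthest arrays (permutation, adjusted p = 0.0469). That pair passed by r without the male WT array numbered 6 or without the female KO array numbered 3. Jade1 probe sets A and B had r = 0.12 and rho = 0.13 (permutation p = 0.579 and 0.589, adjusted p = 0.861 and 0.838).

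By the RefSeq gene table of GRCm38.p6, used for gene order only, the 5 genes lie on both sides of P2ry13 among 922 measured genes of chromosome 3. Jade1 comes before P2ry13 with 65 measured genes between them. After P2ry13 come Ppm1l with 44 genes between, B3galnt1 directly next to it, Asic5 with 77 and Trim2 with 94. The 5 nearest measured genes on either side of each member are 40 genes in all, as Ppm1l and B3galnt1 share theirs. Their KO minus WT differences averaged over both sexes had a median of 0.00 and ran from -0.17 to 0.41, beside a median of 0.00 over all named genes.

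Of these 40 neighbours, 1 passed in KO minus WT averaged over both sexes, where 0.12% of all named genes and 2.17% of the named genes of chromosome 3 passed. It was Tlr2, a receptor for bacterial lipoproteins, which lies near Trim2 and rose by 0.41 (SE 0.08, limma, adjusted p = 0.0451). In females 0 of the 40 passed and in males 0 did (limma), where 0.0888% and 0.047% of all named genes passed, so nothing is read from these counts. In each sex 5 of the 40 had an unadjusted p under 0.05, beside 2253 of all 38385 probe sets in females and 2355 in males (limma). A plain analysis of variance with adjustment also gave 0 of the 40 in each sex. The Tlr2 call ended under quantile normalization (limma, adjusted p = 0.0581), and over the arrays left out in turn its adjusted p ran up to 0.112 (limma). Tlr2 is known from macrophages; Kupffer cell markers summed to 3810 to 4940 in female KO against 3660 to 4390 in female WT livers, and to 2620 to 3570 in male KO against 2650 to 3420 in male WT livers (linear intensity), and their part was not tested.

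The other 39 neighbours did not pass in any of these contrasts (limma). Around Asic5 the smallest p-values were those of Map9, a microtubule protein, at 0.30 (SE 0.08, limma, adjusted p = 0.346), and of Pdgfc, a growth factor, at 0.14 (SE 0.07, limma, adjusted p = 0.749). Gucy1a1 and Gucy1b1, the subunits of soluble guanylate cyclase that follow Asic5, had -0.07 and 0.06. Around Ppm1l and B3galnt1 they were those of Smc4, a condensin subunit, at -0.17, and of the nuclear import gene Kpna4 at 0.16 (limma, adjusted p = 0.663 and 0.746). The 10 genes around Jade1 ran from -0.14 to 0.11.

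**Figure D3:**
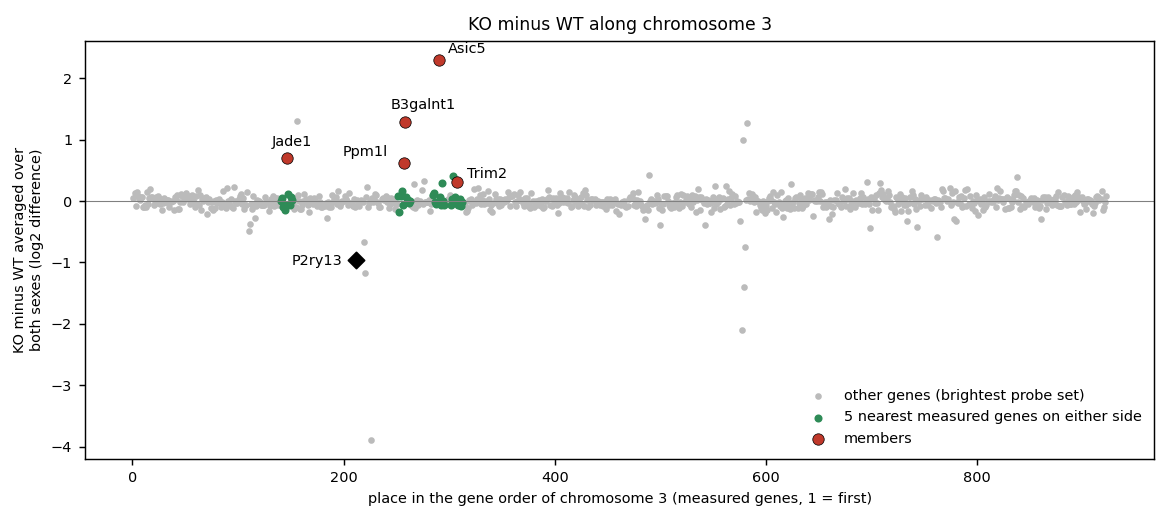
KO minus WT log2 difference averaged over both sexes (vertical) against place in the gene order of chromosome 3 (horizontal, 922 measured genes), with 1 probe set per gene: the brightest, or for the 5 members the one with the smallest p. Asic5, B3galnt1, Jade1 and Ppm1l stand above all 40 nearest measured genes, which run from -0.17 to 0.41, while Trim2 at 0.31 lies below its neighbour Tlr2. The members were chosen for being higher in KO, so nothing is read from their place above the neighbours. The brightest probe set of Ppm1l, A, had -0.04. P2ry13 stands at -0.96.

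Relatives and partners of the 5 proteins were looked up in 7 lists. Of their 78 genes, 74 were measured, and 0 passed in KO minus WT in females, in males or averaged (limma, adjusted p under 0.05). Of all named genes, 0.0888%, 0.047% and 0.12% passed in these contrasts. With shares this small, nothing is read from a count of 0 among 74 genes, nor from those of the single lists below. At an unadjusted p under 0.05 there were 3 in females, 8 in males and 4 in the average. Of all 38385 probe sets, 2253, 2355 and 2651 had such a p (limma). A plain analysis of variance with adjustment gave 0 listed genes in each sex. Among the sodium channels related to Asic5, Asic1 to Asic4 and Scnn1a, Scnn1b and Scnn1g, 0 of 7 passed and the median was -0.04, with Scnn1a, the alpha subunit of the epithelial channel, at 0.07 and Scnn1b at -0.08 (limma, adjusted p = 0.841 for both). Of 14 bile acid genes 0 passed and the median was -0.01. The uptake transporter Slc10a2 had 0.37 (limma, adjusted p = 0.518) and the farnesoid X receptor gene Nr1h4 -0.09 (limma, adjusted p = 0.768).

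Among 14 measured enzymes of glycosphingolipid synthesis and breakdown, 0 passed and the median was 0.01. Gbgt1, which extends globoside in the mouse, had -0.14, and B4galt6, a lactosylceramide synthase, had 0.11 (limma, adjusted p = 0.690 and 0.749). A4galt, whose product is the substrate of B3GALNT1, averaged 2.79, inside the Y-linked range, and had 0.01 (limma, adjusted p = 0.988). Of 9 genes of the HBO1 complex and of the JADE and BRPF families 0 passed and the median was 0.04. The JADE1 relatives Jade2 and Jade3 had 0.12 and -0.08 (limma, adjusted p = 0.713 and 0.851), and Ing4, a reader of histone H3 methylation in the complex, had -0.10 (limma, adjusted p = 0.723). Of 16 other metal-dependent phosphatases 0 passed and the median was 0.01, with Ppm1k, which acts on branched-chain keto acid dehydrogenase, at -0.14 and Ppm1g at 0.09 (limma, adjusted p = 0.749 and 0.751).

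Of 8 genes of ceramide transport and endoplasmic reticulum stress tied to PPM1L, 0 passed and the median was 0.05. Cert1, the ceramide carrier, had 0.01, the carrier of sterols Osbp 0.08 and the stress sensor Ern1 0.11 (limma, adjusted p = 0.989, 0.806 and 0.808). Of 6 TRIM-NHL ligases and proteins tied to TRIM2, 0 passed and the median was 0.01. Trim32 had -0.15 and Bcl2l11, a death-promoting BCL2 relative, had 0.13 (limma, adjusted p = 0.774 and 0.809). Nefl, the neurofilament light chain, averaged 3.13, inside the Y-linked range.

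Between the sexes 22 of the 74 listed genes passed, where 10.5% of all probe sets passed. The listed genes were picked by hand and each stands by its brightest probe set, so nothing is read from this count. In the glycosphingolipid list, St3gal5, the GM3 synthase, was higher in females by 1.17 and Ugcg, the glucosylceramide synthase, by 0.73, while B3galt1 had -0.44 (limma, adjusted p = 2.06e-06, 1.15e-05 and 0.00408). Among the bile acid genes Cyp7b1, an oxysterol hydroxylase, had -2.78, and Cyp7a1, the rate-limiting enzyme of bile acid synthesis, had 1.01 (limma, adjusted p = 7.17e-14 and 0.00481).

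**Figure D4:**
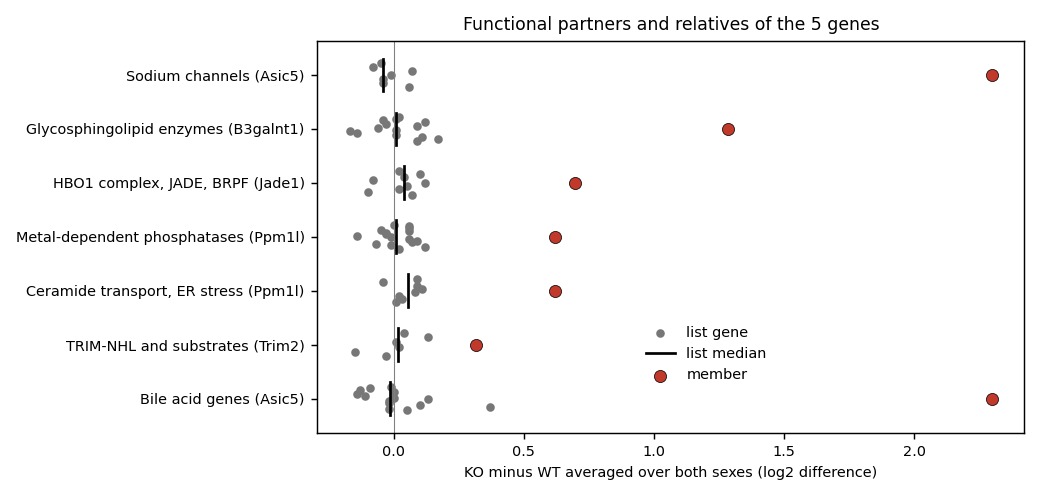
KO minus WT log2 difference averaged over both sexes (horizontal) for each gene of the 7 lists (grey points, brightest probe set), with the list median (black line) and the member each list belongs to (large points, probe set with the smallest p). List medians lie between -0.04 and 0.05, while the members lie between 0.31 and 2.30. The members were chosen for being higher in KO, so nothing is read from this gap.

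The genes whose pattern over the 23 arrays was most like that of a member were found by Pearson's r. It is given as a description since all points share the KO and WT groups. Values named here for Jade1 are those of probe set A and for Ppm1l those of probe set B, which had the smallest p in KO minus WT. For B3galnt1 they were Jade1 with r = 0.86, Ppm1l with 0.76 and Paqr3 with 0.76, and for Jade1 they were B3galnt1 with 0.86, Ppm1l with 0.80 and Kirrel3 with 0.75. Ppm1l was most like Inf2 with 0.82, Asic5 with 0.80 and Jade1 with 0.80. Asic5 was most like Slc30a7, a zinc transporter gene, with 0.83, Acp6 with 0.82 and Hsd3b2 with 0.81, and these 3 genes also lie on chromosome 3. Trim2 was most like Tmpo with 0.73, Jade1 with 0.72 and Ppp2r5e with 0.71. On deviations from group means, r was -0.18 for B3galnt1 and Jade1 and 0.26 for Ppm1l and Asic5. That of Asic5 was 0.55 with Slc30a7, 0.56 with Acp6 and 0.69 with Hsd3b2, genes picked for a high r on these same arrays. These 3 values include the male WT array numbered 6, which stood apart at Asic5 with 7.85. At Hsd3b2 it read 10.53, against 8.58 to 9.74 in the other male WT livers. No within-group value without that array is given. Over the 22 other arrays, r with the group differences left in was 0.82, 0.82 and 0.80.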

How the data were processed

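The authors deposited 1 intensity per probe set on a linear scale. RMA is the method named, per the submitters' processing notes; its version, its settings and any detection call are not stated there. The 38385 probe sets ran from 4.12 to 29673.9. Groups and replicate numbers came from the sample titles. Only the design text says that each array is a separate animal, and p-values measure the spread between these samples.

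Values were converted to log2. All 4 group means were estimated together from the 23 arrays with limma 3.58.1 in R 4.3.3 (19 residual and 7.61 prior degrees of freedom), with Benjamini-Hochberg adjusted p-values over the whole array, with 0.05 as the threshold. Errors beside differences are limma's standard errors. The fit was tested on simulated data. Of the probe sets, 24478 had 1 symbol, 65 several and 13842 are unnamed here; by Entrez ID 24237 of the 24478 matched the RefSeq gene table. The brightest probe set stood for a gene that is no member. Within-group correlations used 100000 permutations within groups. Python 3.11.15 with matplotlib 3.10.9 drew the figures.

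The members, the lists and the tests were chosen with earlier results of these data known. Named are every probe set of the members, P2ry13, neighbours that passed or had the smallest p, listed genes likewise, the 3 genes most like each member, and chromosome 3 genes near the threshold; a few others beside these were chosen after their values were seen. Alternatives were scaling, a filter on dim probe sets, variance models, array weights, the replicate number as a block, only the compared groups, a plain analysis of variance, and leaving out each array; for neighbours, 10 genes per side or a gene's probe sets averaged.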

Additional observations from a re-analysis of the deposited data

Results flagged for a closer look

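Asic5 in the male WT array numbered 6, at 7.85, lay far from the other 4 male WT arrays, at 5.30 to 5.36: its gap to the nearest of them was 0.976 of the whole range of the group, above the critical value of 0.71 for 5 samples. Of 36 groups tested in this way (8 probe sets of the members and P2ry13, in 4 groups each), this was the only 1 past its critical value, and chance alone passes about 1 in 20. For P2ry13 the same array read 5.92, within the 5.80 to 6.34 of the other male WT arrays.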

How the results depend on the processing

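The KO minus WT values of the 8 probe sets and the differences of the KO effects moved by less than the spread between replicates under every alternative run. For Asic5 in males, the male WT array numbered 6 itself widens that spread (male WT SD 1.13 with it, 0.03 without it). The comparison therefore cannot show that Asic5 is stable to that array. Without it the male difference of Asic5 went from 2.63 to 3.13, and its difference of the KO effects from -0.65 to -1.16. The KO minus WT values kept their direction except at Ppm1l probe set A, which lay near 0 and ran from -0.10 to 0.08 in males and from -0.08 to 0.01 in the average over the arrays left out. The differences of the KO effects crossed 0 at Jade1 probe set B (-0.12 to 0.02), Ppm1l probe set A (-0.13 to 0.05) and Ppm1l probe set C (-0.06 to 0.05). Trim2 was not called in the average without male WT array 6. Between the sexes, Asic5 and Jade1 probe set B passed under every alternative, with adjusted p up to 0.0100 and 0.0197 (limma), and the other 6 probe sets never passed. Over all probe sets limma called 21 in females, 12 in males and 31 in the average. The plain analysis of variance named by the design text called 2009 in females and 2272 in males before adjustment, and 7 and 3 after it. With no difference at all, a share of about 0.05 of the 38385 probe sets has an unadjusted p under 0.05. The counts before adjustment are therefore not read as transcripts that changed. Why fewer were called than by limma after adjustment was not tested. Without each array in turn the counts ran from 16 to 29 in females, 9 to 21 in males (21 without the male WT array numbered 6), 23 to 39 in the average, 3491 to 4092 between the sexes and 4 to 5 for the difference of the KO effects. The neighbour count of 1 became 0 under quantile normalization and with the replicate block, and ran from 0 to 1 over the arrays left out, with Tlr2 passing only without female KO array 2, male WT array 2 or male WT array 6; with 10 genes per side or a gene's probe sets averaged it was 1. Pairs that passed within groups ran from 0 to 1 over the arrays left out. The share of calls that were higher was 42.9% in females and 56.7% between the sexes as deposited, and 55.0% and 67.6% with equal array medians. Same-numbered arrays did not deviate together: 3 of 33 pairs correlated above 0.1, and 2 of 23 arrays correlated best with their own number. With the replicate block 18 probe sets were called in females, 13 in males and 27 in the average. B3galnt1 in WT livers is limited by signal near background.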

Other observations

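The male WT array numbered 6 was set beside the other 4 male WT arrays at the chromosome 3 probe sets that passed in KO minus WT averaged over both sexes, a choice made after its Asic5 value was seen. Before P2ry13 in the gene order, an Acad9 probe set read 8.54, with 8.10 to 8.57 in male KO and 8.57 to 8.77 in the other male WT livers, and the other Acad9 probe set read 7.74, with 7.27 to 7.66 in male KO and 7.75 to 7.98 in the other male WT livers. Beside P2ry13, Aadac, a microsomal deacetylase, read 12.04, with 11.32 to 11.56 in male KO and 12.04 to 12.26 in the other male WT livers. Sucnr1, the succinate receptor, read 9.54 and lay between the male KO arrays, at 8.14 to 9.07, and the other male WT arrays, at 9.71 to 10.2. Mme, the membrane peptidase neprilysin, read 6.68 and also lay between them, with 2.79 to 3.52 in male KO and 7.03 to 7.26 in the other male WT livers. B3galnt1 and Jade1 probe set A, at 3.39 and 6.54, lay within the other male WT arrays, at 2.76 to 3.52 and 6.13 to 6.81. Mccc1, Tlr2 and Trim2 lay within the other male WT arrays too, at 9.18, 5.29 and 7.84. Ppm1l probe set B, at 6.51, lay between the male KO arrays, at 6.52 to 7.02, and the other male WT arrays, at 5.89 to 6.42.

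Later in the gene order, from Snx27 to Fabp2, this array lay within the male KO range at each of these probe sets except Prok1. Scnm1 read 6.84, with 6.44 to 6.84 in male KO and 6.93 to 7.08 in the other male WT livers. Hsd3b5 read 12.27, with 11.55 to 12.44 in male KO and 12.41 to 12.75 in the other male WT livers. Hao2 read 2.93, where the male KO range of 2.52 to 3.13 took in the 2.60 to 2.85 of the other male WT livers. Hsd3b2, a hydroxysteroid dehydrogenase gene, read 10.53 in this array, with 9.91 to 10.65 in male KO and 8.58 to 9.74 in the other male WT livers. Hsd3b3 read 10.11, with 9.88 to 10.45 in male KO and 11.63 to 12.06 in the other male WT livers. Hsd3b6 read 7.37, with 7.33 to 7.40 in male KO and 8.43 to 8.62 in the other male WT livers. Snx27, an endosomal sorting gene, read 6.85, with 6.47 to 7.17 in male KO and 6.35 to 6.53 in the other male WT livers. Prok1 read 6.26, with 5.65 to 5.98 in male KO and 6.03 to 6.31 in the other male WT livers. Fabp2, a fatty acid binding protein gene and the last of these in the gene order, read within the male KO range of 9.36 to 10.07 and below the 10.11 to 10.44 of the other male WT livers.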
